A study of Mus musculus with 10 samples.

Results

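Transcripts of the mitochondrial protein import translocases were followed in mouse hippocampus. They were taken as every row of the deposited count table whose gene symbol starts with Timm (15 rows) or Tomm (10 rows), 25 of 20156 rows in all. The rule reads gene symbols. The study sequenced hippocampal RNA of 10 mice aged 6 months, 5 wild type (WT) and 5 labelled Tfam AKO (TfamAKO here), with 1 library a mouse. Tfam encodes the protein that packages mitochondrial DNA and that its transcription needs. The labels give no promoter or Cre line, no deleted exon, no strain, no sex and no litter, and only the series title places the loss in astrocytic mitochondria. The tissue is whole hippocampus, so fewer cells of a type and less RNA per cell cannot be told apart in any value below.

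Nearly all mitochondrial proteins are made in the cytosol and imported. The translocase of the outer membrane (TOM) takes them through a pore, after which the inner membrane offers separate routes. The TIM23 complex passes proteins with a presequence into the matrix or the inner membrane, the TIM22 complex inserts carrier proteins, and small TIM chaperones guide hydrophobic proteins across the space between the membranes. A motor built around the matrix chaperone Hspa9 pulls presequence proteins in. In human cells, TIM17A is known to be degraded under stress.

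All 25 members passed the filter on low counts, and the lowest count of any of them in any library was 85. Of the Timm members, 1 rose and 3 fell in TfamAKO. Of the Tomm members, 0 rose and 2 fell (edgeR quasi-likelihood test, Benjamini-Hochberg adjusted p threshold 0.05 over all 16180 genes tested). At an unadjusted p under 0.05 the Tomm count stayed at 0 higher and went to 3 lower, and both DESeq2 and limma-voom also called 0 Tomm members higher. The share of members called was 24%, against 37.4% of all genes tested. By direction the background was 20.8% higher and 16.6% lower. No member changed by more than 0.5 on the log2 scale, whereas 25.8% of all genes did. Of the 11541 genes within the members' range of average level, 18.6% did. The median absolute log2 fold change was 0.12 for the members, 0.25 for all genes and 0.21 for the genes within that range. Among the genes within that range of level, 40.8% were called. Whether the members' share differs from the background share was not tested. Every difference of a Timm or Tomm member described here is small.

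**Figure D1:**
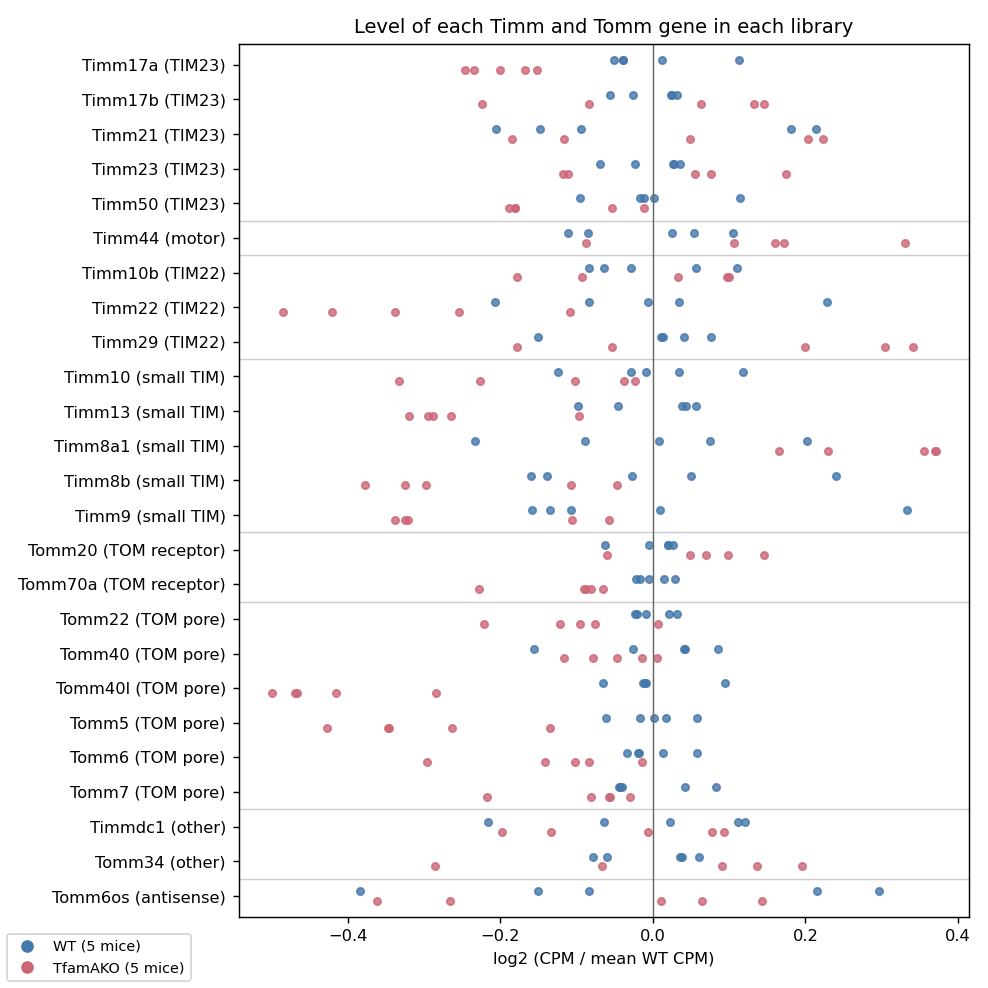
Level of each of the 25 Timm and Tomm genes in each library, as log2 of CPM (counts scaled to a common library size) divided by the gene's mean WT CPM. Blue points are the 5 WT mice and red points the 5 TfamAKO mice, with genes grouped by role. For Tomm40l, Tomm5, Timm17a and Tomm70a all red points lie left of all blue points, and no member's red points all lie right of them.

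Promoter sequence was examined for what the members share beyond their names. RefSeq promoter windows (GRCm38.p6) were found for 22 of the 25 members, and the 250 bases before the annotated start were searched on both strands for an ATF4 response element (TGATGNAA) and an ETS family element (CCGGAAGT), motifs that do not overlap each other. ATF4 drives the integrated stress response, and ETS factors such as GABPA are known regulators of nuclear genes for mitochondrial proteins. The ATF4 element was present in the window of 0 members, against 3.45% of all 32851 windows. The ETS element was present in 4 of the 22 members with a window, Timm23, Timm29, Timmdc1 and Tomm70a, against 2.88% of all windows. It was present in 0 of the 5 called members with a window. Members were counted by gene over 24 windows and the background by window, so for either motif the figures are not in the same unit. Member windows had a median GC content of 57.6%, against 52.4% over all windows, and matches were not compared at equal GC content. A match describes the letters only. The stretches around the ETS element are shown because it was the one motif of the pair that any member held. They run 5′ to 3′ on the gene's strand, the element is in capitals, and ACTTCCGG is its reverse complement. Timmdc1 held a second match, next to its start, which is not shown.
Timm23: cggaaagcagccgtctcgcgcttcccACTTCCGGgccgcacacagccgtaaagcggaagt
Timm29: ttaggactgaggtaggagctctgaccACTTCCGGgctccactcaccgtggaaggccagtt
Timmdc1: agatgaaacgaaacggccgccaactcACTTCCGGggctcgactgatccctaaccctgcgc
Tomm70a: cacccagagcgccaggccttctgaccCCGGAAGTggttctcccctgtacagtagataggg
The stretches lie at chr14:32201906-32201965 (minus strand), chr9:21592483-21592542 (plus), chr16:38522775-38522834 (minus) and chr16:57121608-57121667 (plus) of GRCm38.p6. Their elements begin 48, 213, 145 and 80 bases before the annotated start.

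Libraries were read at 16584245 to 28675367 counts. Tfam itself fell from 29.7 ± 5.17 to 22.5 ± 1.63 CPM (mean ± SD, n = 5 each; log2 fold change -0.40 ± 0.12 SE, edgeR adjusted p = 0.0204), and WT 3 at 20.6 CPM lay within the TfamAKO range. The call of Tfam passed under 15 of 23 other settings. It was lost in the authors' normalized values (-0.28, limma adjusted p = 0.117) and with their factors as offsets (-0.28, edgeR adjusted p = 0.112). It was also lost without TfamAKO 4 and 5 (-0.43, edgeR adjusted p = 0.0524) and without any 1 of WT 2, WT 4 and TfamAKO 3 (edgeR adjusted p from 0.0504 to 0.0580). The 10 choroid plexus markers summed to 2856 to 5754 CPM in WT 3, 4 and 5 and to 39.9 to 168 CPM in the other 7 libraries. The 9 neuronal markers, of which 4 fell and 0 rose, summed to 9756 to 10679 CPM in WT and 7658 to 8991 CPM in TfamAKO. The 7 astrocyte markers (4 higher, 2 lower) summed to 4076 to 4991 and 4369 to 6921 CPM. Of 6 microglial markers 5 rose, with sums of 269 to 321 and 457 to 538 CPM, and of 5 endothelial markers 3 rose (139 to 184 and 190.0 to 322 CPM). The 6 oligodendrocyte markers, of which 1 rose (Mag, log2 fold change 0.87, edgeR adjusted p = 0.0013), summed to 4979 to 8669 CPM in WT, with WT 2 the highest and the other 4 at up to 5999 CPM, and to 5385 to 7385 CPM in TfamAKO. No marker of these lists was at 0 throughout a group. Of 4 Y chromosome genes listed, only Kdm5d was tested. Kdm5d had 22.7 CPM in TfamAKO 4, 22.4 CPM in TfamAKO 5 and no more than 0.699 CPM in any other library. A Y chromosome gene was thus read at this level only in TfamAKO, so sex may not be balanced between the genotypes. The setting without TfamAKO 4 and 5 leaves out those libraries. The part of these differences in the results below was not tested.

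In the inner membrane's presequence channel, 1 of 5 members was called, 20% against 37.4% of all genes. Timm17a, a core subunit of TIM23, was at 67.3, 67.9, 75.4, 67.9 and 70.3 CPM in WT 1 to 5. In TfamAKO 1 to 5 it was at 62.8, 59.3, 60.7, 62.1 and 58.8 CPM. All TfamAKO libraries lay below all WT libraries, a fall of 0.20 ± 0.05 SE on the log2 scale (edgeR adjusted p = 0.00984). Non-overlapping groups were found for 4 of the 25 members, against 23.9% of all genes. Its paralog Timm17b, which takes the same place in other copies of the complex, was at 14.2, 15.1, 15.0, 15.0 and 14.5 CPM in WT, against 13.9, 16.3, 15.4, 16.2 and 12.6 CPM in TfamAKO. The TfamAKO values of Timm17b spread to both sides of the WT values, with a log2 fold change of 0.01 (95% interval -0.18 to 0.21, edgeR adjusted p = 0.923). The pore subunit Timm23 had a log2 fold change of 0.02 (95% interval -0.12 to 0.16), the receptor Timm50 one of -0.12 (-0.27 to 0.03), and Timm21, which links the channel to the respiratory chain, one of 0.04 (-0.25 to 0.33).

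The call of Timm17a depended on which deposited table was used. In the authors' normalized values, whose ratio to the counts differs from gene to gene, Timm17a was at 1503 ± 52.3 in WT and 1430 ± 81.2 in TfamAKO (mean ± SD, n = 5 each), and the log2 fold change was -0.07 (limma adjusted p = 0.374). Its normalized value per count, relative to the median of that ratio in the same library, was higher in TfamAKO than in WT by 0.13 on the log2 scale, an absolute difference at the 87.5th percentile of all genes. Timm50, singled out after its values were seen, moved the other way: its relative value per count was lower in TfamAKO by 0.17 on the log2 scale (WT mean 0.09, TfamAKO mean -0.08). Its normalized values were 591 ± 56.5 in WT and 477 ± 19.98 in TfamAKO, with a log2 fold change of -0.30 (limma adjusted p = 0.0166), against -0.12 (edgeR adjusted p = 0.180) in the counts. Without WT 3, 4 and 5, Timm17a was at -0.13 (edgeR adjusted p = 0.264).

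Timm44 anchors the import motor to the channel. Its level was 48.7, 47.0, 46.1, 41.9 and 42.7 CPM in WT and 42.6, 51.0, 48.7, 50.5 and 56.9 CPM in TfamAKO. TfamAKO 5 was the highest library and TfamAKO 1 lay within the WT range, and without TfamAKO 1 the difference passed (0.20, edgeR adjusted p = 0.0372). The log2 fold change of 0.14 (95% interval -0.03 to 0.32) was not past the threshold (edgeR adjusted p = 0.169).

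Of the 3 members of the carrier translocase 1 was called, 33.3% against 37.4% of all genes. Timm22, its channel, was lower in TfamAKO. It was at 19.9, 17.3, 18.8, 23.4 and 20.4 CPM in WT, against 16.7, 14.9, 15.8, 14.3 and 18.5 CPM in TfamAKO. The groups overlapped through WT 2 and TfamAKO 5. The fall of 0.32 ± 0.10 SE on the log2 scale had an edgeR adjusted p of 0.0281, and it passed under 13 of 23 other settings. Among those it missed were the authors' normalized values (-0.40, limma adjusted p = 0.0544) and the counts without WT 3, 4 and 5 (-0.18, edgeR adjusted p = 0.400). The call was also lost without any 1 of WT 4, WT 5 and TfamAKO 2, 3 and 4 (edgeR adjusted p from 0.0520 to 0.0730). Timm29 and Timm10b, which sit with Timm22 in the complex, had log2 fold changes of 0.14 (95% interval -0.07 to 0.35) and -0.0020 (-0.17 to 0.17).

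Of the 5 small TIM chaperones 1 was called higher and 1 lower, 40% against 37.4% of all genes. Of the 5, 4 had log2 fold changes below 0, beside 52.1% of all genes. Timm13 and Timm8a1, partners in 1 chaperone complex, went in opposite directions. Timm13 was at 45.9, 45.3, 45.4, 42.7 and 41.2 CPM in WT, against 36.7, 36.1, 35.3, 41.2 and 35.9 CPM in TfamAKO, and only TfamAKO 4 reached the lowest WT value. It fell by 0.25 ± 0.06 SE on the log2 scale (edgeR adjusted p = 0.00874). Without WT 3, 4 and 5 the size was kept but not the call (-0.27, edgeR adjusted p = 0.0723).

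Timm8a1 lies on the X chromosome, and mutation of its human counterpart causes a deafness and dystonia syndrome. It was at 9.84, 12.04, 11.02, 10.5 and 8.90 CPM in WT, against 13.5, 12.3, 13.4, 13.5 and 11.7 CPM in TfamAKO, with WT 2 and TfamAKO 5 overlapping. It rose by 0.30 ± 0.10 SE on the log2 scale (edgeR adjusted p = 0.0348). This was the least stable of the 6 calls: it passed under 8 of 23 other settings, and was at 0.32 (edgeR adjusted p = 0.0639) without TfamAKO 4 and 5. Leaving out 1 library ended it for 7 of the 10 libraries, all but WT 2, WT 3 and TfamAKO 5. Its paralog Timm8b was at 48.5, 40.3, 42.5, 37.3 and 36.8 CPM in WT, against 39.7, 32.8, 33.4, 38.1 and 31.6 CPM in TfamAKO, a log2 fold change of -0.22 that did not pass (edgeR adjusted p = 0.0775) but did without TfamAKO 1 (-0.27, edgeR adjusted p = 0.0340). Timm9 (-0.22, 95% interval -0.46 to 0.01) and Timm10 (-0.14, -0.33 to 0.05), which form the other chaperone complex, did not pass either.

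In the outer membrane pore and its small subunits, 2 of 6 members were called, both lower. That is 33.3%, against 37.4% of all genes called and 16.6% called lower. All 6 had log2 fold changes below 0, beside 52.1% of all genes. Tomm40l, a paralog of the pore protein Tomm40, had the smallest p of all 25 members. It was at 64.4, 59.9, 59.8, 59.7 and 57.6 CPM in WT, against 49.5, 43.6, 43.6, 45.2 and 42.6 CPM in TfamAKO. Every TfamAKO library was below every WT library, and TfamAKO 1 was the nearest to them. It fell by 0.42 ± 0.06 SE on the log2 scale (edgeR adjusted p = 0.000202) and passed under all 23 other settings, between -0.46 and -0.40. Tomm40 itself was at 84.3, 81.8, 71.3, 81.7 and 78.0 CPM in WT, against 75.3, 79.8, 76.9, 78.6 and 73.3 CPM in TfamAKO. All its TfamAKO values lay inside the WT range, with a log2 fold change of -0.05 (95% interval -0.17 to 0.07).

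Tomm5, a small subunit that helps assemble the pore, was at 18.7, 18.5, 18.2, 17.7 and 19.2 CPM in WT, against 16.8, 14.5, 14.5, 15.4 and 13.7 CPM in TfamAKO. The groups did not overlap. It fell by 0.30 ± 0.08 SE on the log2 scale (edgeR adjusted p = 0.00962), and passed under 22 of 23 other settings, the exception being the counts without WT 3, 4 and 5 (-0.29, edgeR adjusted p = 0.126). The other small subunits Tomm6 (-0.13, 95% interval -0.26 to 0.01) and Tomm7 (-0.09, -0.22 to 0.05) and the central receptor Tomm22 (-0.10, -0.22 to 0.02) did not pass.

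The outer membrane receptors that bind incoming proteins did not pass the threshold. Tomm20, the presequence receptor and a common marker of mitochondria in tissue stains, was at 334.8, 354.5, 348.4, 354.5 and 356.1 CPM in WT, against 361.6, 386.9, 374.5, 366.8 and 335.4 CPM in TfamAKO. TfamAKO 5 fell within the WT range and the other 4 lay above it (log2 fold change 0.06, 95% interval -0.05 to 0.17, edgeR adjusted p = 0.360). Tomm70a, the receptor for carrier proteins, was at 182, 186, 179, 184 and 180.1 CPM in WT, against 174, 172, 172, 171 and 156 CPM in TfamAKO. Its groups did not overlap, yet the difference of -0.11 ± 0.05 SE missed the threshold (edgeR adjusted p = 0.0902). It did pass with the DESeq2 Wald test (adjusted p = 0.0341) and with upper-quartile scaling (edgeR adjusted p = 0.0374).

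For the 3 rows that share the name but are no subunit of a translocase, no difference passed. Tomm34, a cytosolic co-chaperone, was at 93.0, 102, 101, 101 and 94.2 CPM in WT, against 93.8, 108, 105, 113 and 80.6 CPM in TfamAKO. TfamAKO held both the highest and the lowest of the 10 values (log2 fold change 0.02, 95% interval -0.16 to 0.21). Timmdc1, an assembly factor of complex I, had a log2 fold change of -0.03 (-0.23 to 0.17). Tomm6os, an RNA from the strand opposite Tomm6 that was measured at about 5 CPM, had one of -0.06 (-0.42 to 0.29). The library kit marks strand per the labels' protocols, but the sources used here do not say whether counting used strand, so reads of Tomm6 and Tomm6os may not be fully separated.

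**Figure D2:**
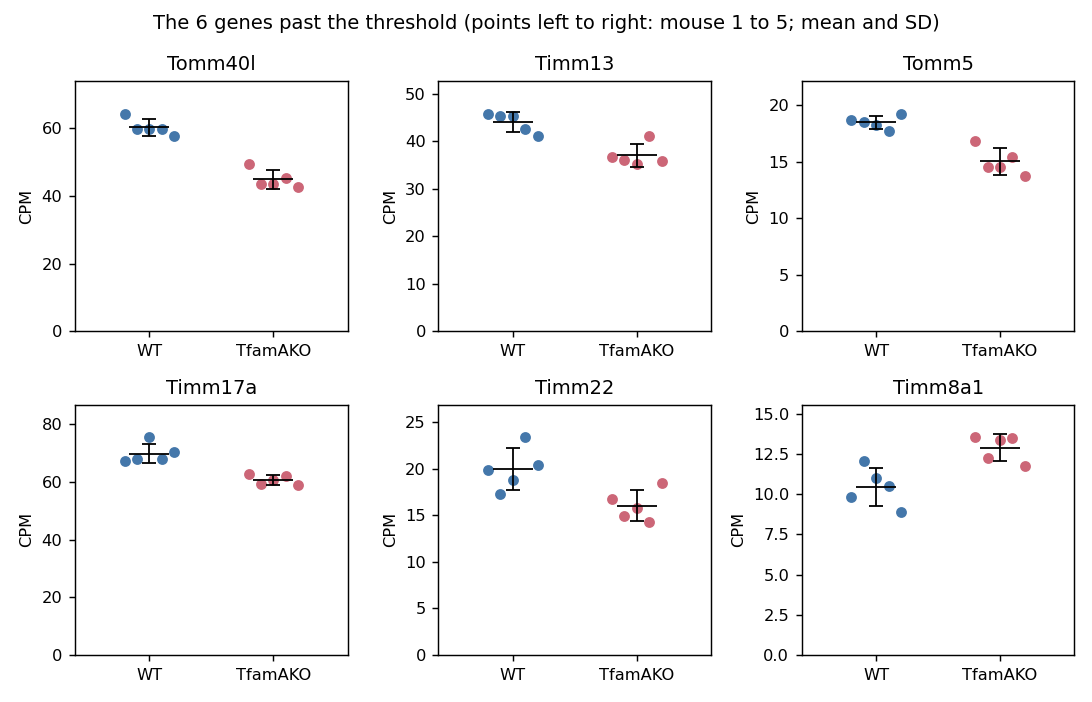
CPM of the 6 members past the threshold in each mouse, with mean and SD over 5 mice per genotype and axes starting at 0. WT and TfamAKO points separate fully for Tomm40l, Tomm5 and Timm17a and overlap for Timm22, Timm13 and Timm8a1.

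The Timm rows stand for the inner membrane only in part, since 5 of them are small chaperones of the space between the membranes. By role, the median log2 fold change was 0.01 for the 5 TIM23 members, -0.0020 for the 3 TIM22 members and -0.22 for the 5 small chaperones. The motor anchor Timm44 was at 0.14. In the outer membrane the median was -0.11 for the 6 pore members and -0.02 for the 2 receptors. The median log2 fold change was -0.03 for the 15 Timm rows and -0.09 for the 10 Tomm rows, beside -0.02 for all genes tested. Without the rows that are no subunits (Timmdc1, Tomm34 and Tomm6os) the medians were -0.06 for 14 and -0.10 for 8. Below 0 were 9 of 15 Timm rows and 8 of 10 Tomm rows, and 52.1% of all genes. The Timm rows ranged from -0.32 to 0.30 and the Tomm rows from -0.42 to 0.06, the ends being Timm22, Timm8a1, Tomm40l and Tomm20. Differences between the families or roles were not tested, since the members were not drawn as a sample. The order of the 2 family medians turned under 1 of the 23 other settings (-0.07 for both without TfamAKO 4 and 5).

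The 19 members that did not pass had 95% intervals of the log2 fold change between -0.46 and 0.35. All 19 intervals lay within 0.5 either way, that is within a 1.41-fold change, and 10 lay within 0.25 either way. Standard errors ran from 0.05 for Tomm70a to 0.16 for Tomm6os. Within a genotype the coefficient of variation ran from 1.51% (Tomm70a) to 19.1% (Tomm6os) in WT and from 2.81% (Timm17a) to 15.3% (Timm29) in TfamAKO.

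**Figure D3:**
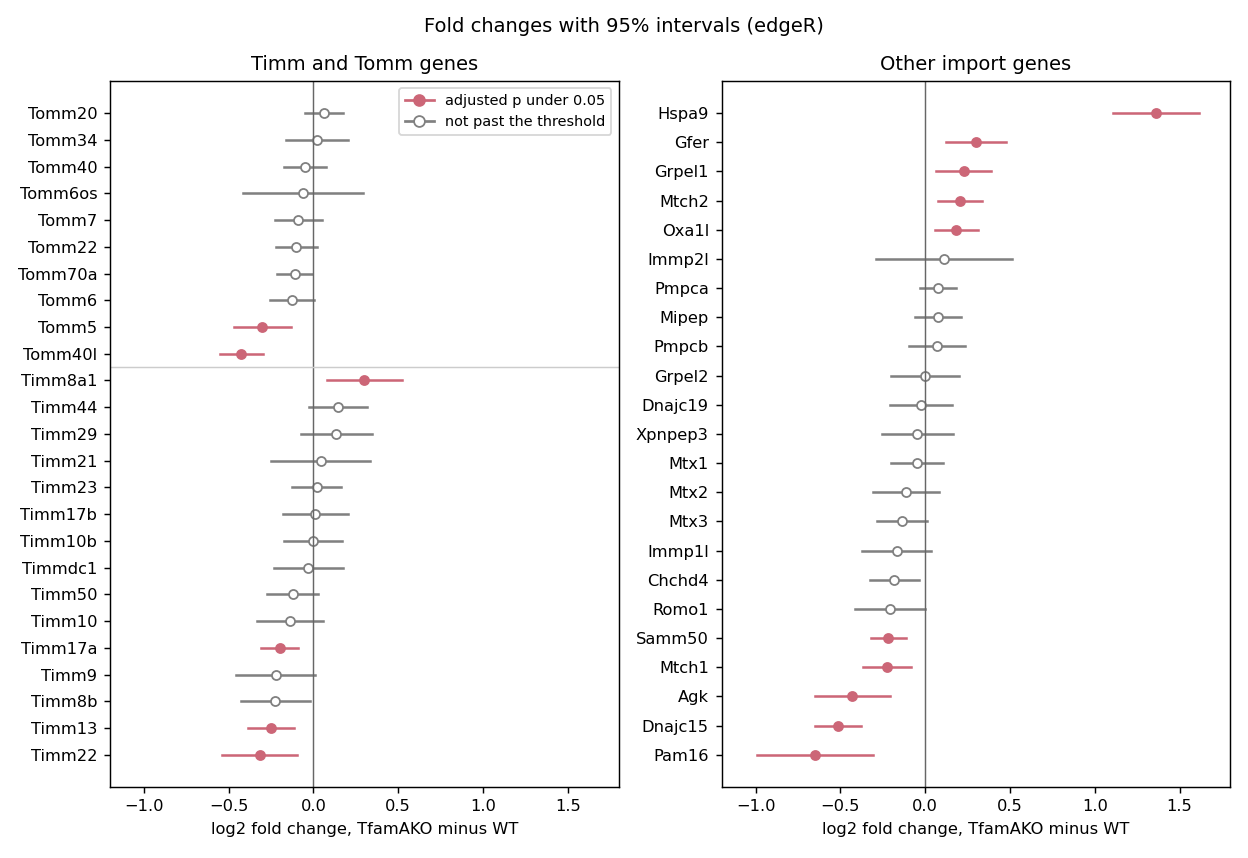
Log2 fold changes (TfamAKO minus WT) with 95% intervals from edgeR, for the 25 Timm and Tomm genes on the left and 23 other import genes on the right, on the same axis. Filled red points are past the adjusted p threshold of 0.05. Hspa9 at 1.36 lies outside the range of all Timm and Tomm genes, -0.42 to 0.30.

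Levels can be compared between genes only per transcript length, here CPM per kilobase of the longest basic GENCODE M21 transcript, which is a rough scale where a gene uses shorter transcripts. In WT, Timm8b (79.3 ± 9.18, SD, n = 5), Tomm20 (71.3 ± 1.799) and Tomm6 (70.5 ± 1.803) were the highest, and their WT values differed by less than the SD of Timm8b. Tomm40 (48.3 ± 3.07) and Timm23 (46.3 ± 1.42), the pore proteins of the outer and the inner membrane, came next and lay within 1 SD of Tomm40 of each other. Timm21 (2.76 ± 0.377) and Tomm6os (1.85 ± 0.354) were the lowest. On this scale Tomm40 stood above Tomm40l (12.8 ± 0.525) and Timm17a (9.58 ± 0.463) above Timm17b (6.20 ± 0.166).

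The ratio of 2 paralogs within a library hardly depends on how libraries are scaled, so 5 pairs were compared by a two-sided exact permutation test over all assignments of the libraries to 2 groups of 5, with p adjusted over the 5 pairs. The log2 ratio of Tomm40 to Tomm40l was 0.40 ± 0.08 in WT and 0.77 ± 0.10 in TfamAKO (SD, n = 5 each), with no overlap (exact permutation p = 0.00794, adjusted p = 0.0132). That of Timm8a1 to Timm8b went from -1.96 ± 0.22 to -1.44 ± 0.09, again with no overlap (exact permutation p = 0.00794, adjusted p = 0.0132). So did the ratio of Dnajc15 to Dnajc19, a pair of J proteins of the import motor, from 1.85 ± 0.12 to 1.37 ± 0.11 (exact permutation p = 0.00794, adjusted p = 0.0132). A p of 0.00794 is the smallest this test can give. Timm17a to Timm17b went from 2.23 ± 0.07 to 2.03 ± 0.15, and TfamAKO 1 and TfamAKO 5 overlapped the WT range (exact permutation p = 0.0397, adjusted p = 0.0496). That last call was lost without any 1 of 8 libraries (all but TfamAKO 1 and 5) and in the authors' normalized values (difference -0.18, exact permutation adjusted p = 0.183). For Grpel1 to Grpel2, the exchange factors of Hspa9, the ratio of 0.90 ± 0.17 in WT and 1.12 ± 0.17 in TfamAKO did not differ past the threshold (exact permutation p = 0.0873, adjusted p = 0.0873), but it passed without WT 4 (difference 0.28, exact permutation adjusted p = 0.0496) and without TfamAKO 5 (0.29, 0.0238).

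**Figure D4:**
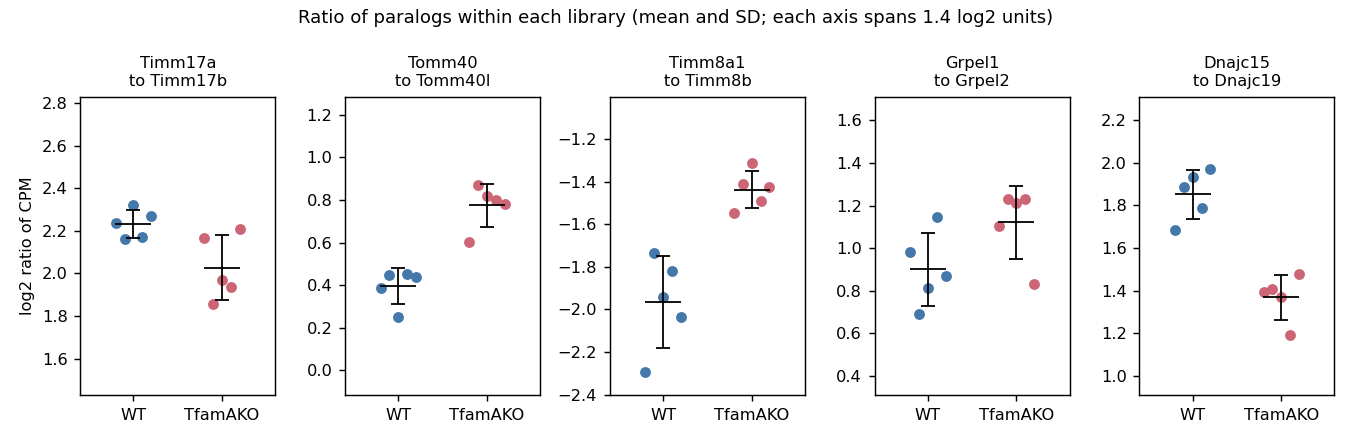
Log2 ratio of the CPM of 2 paralogs in each library, for 5 pairs, with mean and SD over 5 mice per genotype and points from left to right for mice 1 to 5. The groups separate for Tomm40 to Tomm40l, Timm8a1 to Timm8b and Dnajc15 to Dnajc19, and overlap for the other 2 pairs.

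The proteins that work with the translocases were read from a list of 23 genes, all of which had a row and were tested. The list held 24 symbols, since Pam16 was also entered under its other name Magmas. Of the 23 genes, 5 rose and 5 fell, 43.5% against 37.4% of all genes. Whether these shares differ was not tested. The median log2 fold change was -0.05 for the partner genes, beside -0.02 for all genes. In the group listed as matrix motor 2 of 7 rose and 2 fell, 57.1% called. Over all genes 20.8% were called higher and 16.6% lower. That group includes Romo1, an inner membrane protein rather than a motor subunit, which did not pass (log2 fold change -0.21, edgeR adjusted p = 0.107). Hspa9, the motor's Hsp70 chaperone, was at 201, 221, 202, 214 and 209.8 CPM in WT, against 389, 619.8, 590.2, 616 and 474 CPM in TfamAKO, and even TfamAKO 1, the lowest of these, stood far above all WT. It rose by 1.36 ± 0.12 SE on the log2 scale (edgeR adjusted p = 6.80e-06), the only one of the 48 Timm, Tomm and partner genes to change more than 2-fold.

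Dnajc15, a J protein of the motor, was at 51.5, 59.3, 55.2, 54.3 and 55.7 CPM in WT, against 43.0, 37.3, 38.2, 36.9 and 38.0 CPM in TfamAKO, with no overlap. It fell by 0.51 ± 0.06 SE on the log2 scale (edgeR adjusted p = 8.53e-05). Dnajc19, its paralog, stood at 15.9, 16.0, 14.4, 15.6 and 14.1 CPM in WT, against 16.3, 13.99, 14.7, 16.1 and 13.6 CPM in TfamAKO, and the groups overlapped throughout. Pam16, the J-like regulator that pairs with them, was at 7.25, 6.37, 6.65, 9.50 and 8.21 CPM in WT, against 5.34, 5.97, 3.80, 4.44 and 4.76 CPM in TfamAKO, also without overlap. It fell by 0.65 ± 0.16 SE on the log2 scale (edgeR adjusted p = 0.00724). Grpel1 was at 36.9, 34.9, 34.1, 36.6 and 36.2 CPM in WT, against 37.1, 41.4, 45.4, 46.8 and 38.3 CPM in TfamAKO. It rose by 0.23 ± 0.07 SE on the log2 scale (edgeR adjusted p = 0.0313), with TfamAKO 1 just above the highest WT library, and passed under 11 of 23 other settings. Leaving out any 1 of WT 3, 4 and 5 and TfamAKO 2, 3 and 4 ended the call (0.18 to 0.23 on the log2 scale), as did leaving out TfamAKO 4 and 5 together (0.21, edgeR adjusted p = 0.0620). Grpel2, at 18.6, 21.6, 19.3, 16.5 and 19.8 CPM in WT and 17.2, 17.6, 19.5, 19.9 and 21.5 CPM in TfamAKO, overlapped fully (edgeR adjusted p = 0.994).

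Samm50, which inserts barrel proteins such as Tomm40 into the outer membrane, was at 101, 92.4, 100.1, 102 and 97.3 CPM in WT, against 87.7, 84.7, 83.9, 83.8 and 84.1 CPM in TfamAKO. It fell by 0.22 ± 0.05 SE on the log2 scale with no overlap (edgeR adjusted p = 0.00374). Of the 4 genes of its machinery it was the only 1 to pass, 25% against 37.4% of all genes. Gfer, the oxidase that recharges the disulfide relay through which small TIM proteins are imported, was at 13.9, 13.3, 12.5, 12.5 and 13.7 CPM in WT, against 15.3, 16.9, 17.6, 16.4 and 14.9 CPM in TfamAKO. It rose by 0.30 ± 0.08 SE on the log2 scale (edgeR adjusted p = 0.0125). Agk, a lipid kinase that is also a subunit of TIM22, was at 36.6, 31.2, 33.2, 35.4 and 35.5 CPM in WT, against 32.6, 23.4, 25.5, 24.2 and 22.1 CPM in TfamAKO. Only TfamAKO 1 reached the WT range, and the fall was 0.43 ± 0.10 SE on the log2 scale (edgeR adjusted p = 0.00599). Of the membrane insertases, Mtch2 (0.21 ± 0.06) and Oxa1l (0.18 ± 0.06) rose and Mtch1 (-0.23 ± 0.06) fell on the log2 scale. The call of Oxa1l passed under 13 of 23 other settings. It was lost in the authors' normalized values (0.10, limma adjusted p = 0.265), with their factors as offsets (0.10, edgeR adjusted p = 0.265) and with upper-quartile scaling (0.15, edgeR adjusted p = 0.0524). Leaving out any 1 of WT 1, WT 3 and TfamAKO 2 (0.16 to 0.17) or both TfamAKO 4 and 5 (0.16, edgeR adjusted p = 0.0892) ended it too. That of Mtch2 was lost without WT 5 (0.18, edgeR adjusted p = 0.0519). Of 6 genes for presequence and intermembrane space peptidases, 0 passed by edgeR in either direction, also at an unadjusted p under 0.05.

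Without WT 3, 4 and 5, 2 WT libraries remain and 16.5% of all genes were called. Of the 6 member calls 1 was left, Tomm40l, and of the 10 partner calls 2, Hspa9 and Dnajc15. The log2 fold changes of Timm17a and Timm22 were then -0.13 and -0.18, against -0.20 and -0.32 over all libraries. Those of Timm13, Tomm5 and Timm8a1 were -0.27, -0.29 and 0.26, against -0.25, -0.30 and 0.30.

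**Figure D5:**
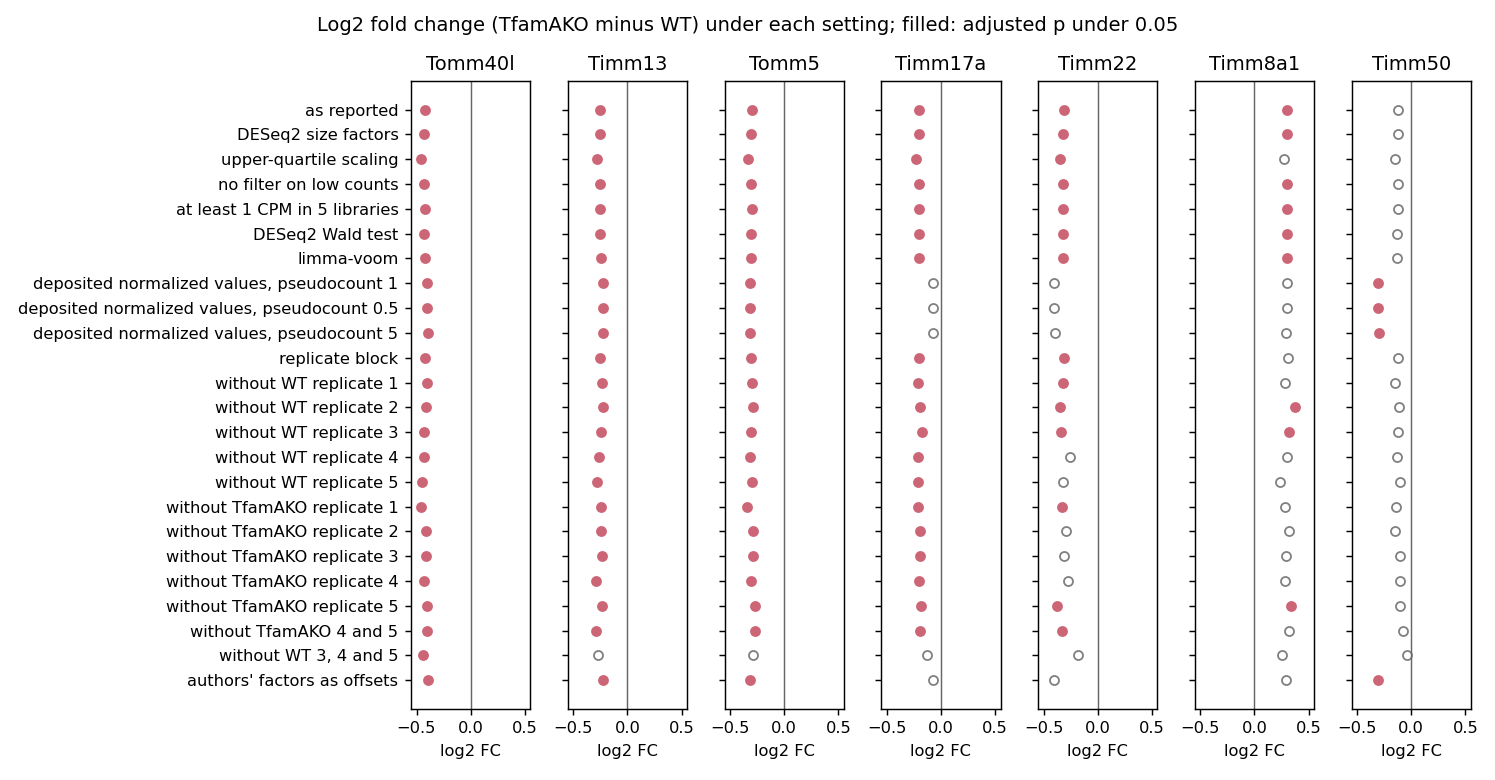
Log2 fold change (TfamAKO minus WT) of the 6 members past the threshold and of Timm50 as reported and under each of 23 other settings. Filled points have an adjusted p under 0.05. Tomm40l is filled in every row, while Timm17a moves toward 0 and Timm50 away from it in the rows that use the authors' normalized values or factors.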

How the data were processed

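RNA from 10 hippocampi was sequenced from stranded mRNA libraries, per the labels' protocols. The authors deposited unnormalized estimated counts per gene, all whole numbers, and a second table of normalized values, read as a signal since nothing states how they were derived. Salmon (no version) and DESeq2 1.26.0 are named in the submitters' processing notes. The build was not given in the sources used here, nor was the annotation. Salmon divides reads shared between paralogs by estimate, so such genes may share error.

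Counts were tested with edgeR 4.0.16 in R 4.3.3: filterByExpr (minimum count 10, 16180 genes kept, 3976 removed), TMM scaling, and a two-sided quasi-likelihood F test on all 10 libraries, genotype being its sole term. Each SE was derived from the fold change and its F value. Each edgeR p-value sets the genotype difference against the spread between mice of the same genotype. For paralog ratios a prior count of 2 entered log2 CPM. The steps were tested on simulated data. Alternatives were other scalings, filters, DESeq2 1.42.0, limma 3.58.1 (voom, and log2 of the deposited normalized values plus 0.5, 1 or 5), a replicate block and leaving out each library. Leaving out sets of libraries, and the authors' factors as offsets, were chosen after seeing the data.

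Named are all rows starting with Timm or Tomm. Library values are given for those past the threshold, the 2 highest and 2 lowest fold changes of each family, both genes of each pair, and the 6 partner genes with the smallest p. Those of Tomm70a, whose groups did not overlap, are given beyond this rule. The members and lists were chosen with earlier results of these data known.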

Additional observations from a re-analysis of the deposited data

Results flagged for a closer look

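Over 82 groups of 5 libraries looked at (members, called partner genes, Tfam and paralog ratios), 7 held 1 library whose gap to the nearest other exceeded 0.71 of the group's range. Chance gives about 1 in 20. Timm13 was at 41.2 CPM in TfamAKO 4, with the other 4 TfamAKO libraries at 35.3 to 36.7 CPM. Both Tomm7 (25.1 CPM, others 27.6 to 28.6) and Tomm70a (156 CPM, others 171 to 174) were lowest in TfamAKO 5. Dnajc15 (43.0 CPM, others 36.9 to 38.2) and Samm50 (87.7 CPM, others 83.8 to 84.7) were highest in TfamAKO 1, on the side of WT. Tfam was lowest in WT 3 (20.6 CPM, others 30.4 to 33.0) and, among TfamAKO, in TfamAKO 3 (19.6 CPM, others 22.7 to 23.6).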

How the results depend on the processing

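Of the 6 member calls, Tomm40l passed under all 23 other settings, Timm13 and Tomm5 under 22, Timm17a under 18, Timm22 under 13 and Timm8a1 under 8. None of the 6 changed direction. Over all genes 4828 to 7094 were called with 1 library left out. The count of Timm members higher went from 1 to 0 with upper-quartile scaling, the authors' normalized values (each pseudocount), their factors as offsets, the replicate block, without TfamAKO 4 and 5 and without WT 3, 4 and 5. With 1 library left out it was 0 to 1. Import partners higher went from 5 to 3 in the normalized values and without TfamAKO 4 and 5, and were 3 to 5 with 1 library left out. Without WT 3, 4 and 5, 2752 genes in all were called, with 0 Timm and 1 Tomm member lower, and 1 partner higher and 1 lower. Fewer samples remain there. Tfam lost its call in the normalized values and with their factors as offsets (-0.28 in each) and without TfamAKO 4 and 5 (-0.43). It ranged from -0.51 to -0.34 with 1 library left out, losing the call without WT 2, WT 4 or TfamAKO 3.

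The deviations of same-numbered libraries had correlations of 0.104, 0.025, 0.023, -0.020 and -0.14 for numbers 1 to 5, so the numbers were not taken to pair mice, for which every correlation had to be over 0.1. With the replicate block 5679 genes were called, Timm8b passed and Timm8a1 and Grpel1 did not. For the paralog ratios the replicate block is an exact sign-flip permutation test that cannot go below p = 0.0625. It left differences of -0.21 for Timm17a to Timm17b, 0.38 for Tomm40 to Tomm40l, 0.53 for Timm8a1 to Timm8b and -0.48 for Dnajc15 to Dnajc19, none past the threshold. Without WT 3, 4 and 5 the values were -0.17, 0.36, 0.58 and -0.42. There the smallest exact permutation p is 0.0476, and the last 3 pairs, which sat at it, had an adjusted p of 0.0794, so their loss comes from the number of libraries. Timm17a to Timm17b was at -0.18 in the normalized values and at -0.25 to -0.16 with 1 library left out, and Grpel1 to Grpel2 at 0.17 to 0.29.

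Members near 0 changed sign without passing. Upper-quartile scaling gave -0.019 for Timm17b, -0.012 for Timm23 and -0.0078 for Tomm34, and limma-voom 0.0094 for Timm10b. Tomm34 was at -0.014 in the normalized values (each pseudocount) and -0.0060 with their factors as offsets, and Timmdc1 at 0.018 without TfamAKO 4 and 5. With 1 library left out the ranges were -0.029 to 0.038 for Timm10b, -0.021 to 0.068 for Timm17b, -0.0038 to 0.099 for Timm21, -0.021 to 0.053 for Timm23, -0.080 to 0.017 for Timmdc1, -0.022 to 0.093 for Tomm34 and -0.15 to 0.019 for Tomm6os. Apart from the loss of libraries, the causes were not tested.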

Other observations

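TfamAKO 5 had the lowest level among the TfamAKO libraries for 16 of the 25 members, and for 28.5% of all genes tested. TfamAKO 1 was the TfamAKO library nearest to the WT mean for 3 of the 6 members called and for 6 of the 10 partner genes called, and for 60.7% of the 6048 genes called.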
